A study of Homo sapiens with 6 samples.

Results

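The genes of cholesterol synthesis, uptake and transport were followed in 6 tumours of Huh7, an established human hepatocellular carcinoma line, grown under the skin of nude mice. In 3 IR-A tumours the cells carried the expression plasmid pRcCMVi.hIR-A(GFP), which encodes insulin receptor isoform A and a GFP marker, and in 3 control tumours they carried the empty vector. All cells had been selected with G418 and sorted by GFP fluorescence, so both groups share that history, and the receptor came from the plasmid rather than from its own gene. Nude mice lack mature T cells but keep other host cells, and the labels do not say whether tumours of a group came from separate animals, clones or cultures. The members are 37 genes listed by symbol for their roles in the pathway. Earlier results of these data were known when they were chosen. Rows of the value table, which are named by Entrez gene ID, were found for 36 of them among 24726 probe sets, and HSD17B7 was not analysed here. Values are log2 signals, 1 array per tumour, so a difference of 1 is a 2-fold difference.

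Cholesterol is built from acetyl-CoA through mevalonate, isoprenoids, squalene and lanosterol. The liver is a main site of this synthesis and also clears cholesterol-carrying lipoproteins from blood. When sterols run low in the endoplasmic reticulum, the escort protein SCAP carries the membrane-bound transcription factor SREBP-2 to the Golgi, where the site-1 and site-2 proteases release its active part, which raises transcription of synthesis and uptake genes. INSIG proteins hold SCAP back when sterols are plentiful. Insulin signalling is known to act on SREBP factors in hepatocytes, which gives the comparison of these genes between IR-A and control tumours its interest.

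SREBP-2 acts on sterol response elements, mostly next to a CCAAT box, the site of the factor NF-Y, so both motifs were searched on both strands of the 250 bases before each RefSeq start (GRCh38.p14). The searched letters were TCACNCCAC for the core of the sterol element and CCAAT for the box. Elements with other letters or outside these 250 bases were not counted, so a gene without a match may still hold one. Of 36 measured members, 30 were in the promoter table. CCAAT lay in 20 of these 30 genes (66.7%), against 37% of all 27305 genes and 32.0% of all 35116 promoters in the table. Among 16 members of synthesis, 13 held it. The sterol core lay in 1 of the 30, SREBF2 itself, against 1.09% of all genes and 0.883% of all promoters. SREBF2 is printed first for that reason. TM7SF2 and STARD4 are printed because they had the largest differences of the members, and HMGCS1 because it is a mevalonate gene whose groups lay close together. Capitals mark matches on either strand (a CCAAT on the opposite strand reads ATTGG), and no matches overlapped. The stretches lie at chr22:41832855-41833104 (plus strand) for SREBF2, chr11:65111622-65111871 (plus strand) for TM7SF2, chr5:111512536-111512785 (minus strand) for STARD4 and chr5:43313413-43313662 (minus strand) for HMGCS1. HMGCS1 has 2 starts in the table, and the 1 printed was picked for the most matches (by position in a tie).
SREBF2: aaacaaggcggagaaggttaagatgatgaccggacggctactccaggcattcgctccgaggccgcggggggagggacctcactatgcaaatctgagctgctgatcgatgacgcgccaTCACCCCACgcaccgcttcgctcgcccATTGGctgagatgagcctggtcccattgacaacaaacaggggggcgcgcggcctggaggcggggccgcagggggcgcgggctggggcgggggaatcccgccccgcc
TM7SF2: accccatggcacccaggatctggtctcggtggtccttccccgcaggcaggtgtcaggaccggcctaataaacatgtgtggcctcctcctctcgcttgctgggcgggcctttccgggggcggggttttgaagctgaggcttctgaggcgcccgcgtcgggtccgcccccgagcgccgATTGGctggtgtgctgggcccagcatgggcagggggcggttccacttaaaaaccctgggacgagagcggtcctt
STARD4: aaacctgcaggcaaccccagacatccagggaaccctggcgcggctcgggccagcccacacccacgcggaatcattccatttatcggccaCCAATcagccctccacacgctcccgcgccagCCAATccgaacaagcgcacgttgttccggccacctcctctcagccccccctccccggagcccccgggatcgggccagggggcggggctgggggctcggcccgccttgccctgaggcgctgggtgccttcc
HMGCS1: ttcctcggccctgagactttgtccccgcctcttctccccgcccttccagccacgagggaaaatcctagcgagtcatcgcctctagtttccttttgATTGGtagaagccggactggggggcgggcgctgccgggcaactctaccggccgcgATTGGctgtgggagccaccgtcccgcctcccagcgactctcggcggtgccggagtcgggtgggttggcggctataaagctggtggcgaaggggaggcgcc
A match is a match of letters in this window only, and binding was not measured.

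The gene that was overexpressed, INSR, read 10.65, 11.31 and 11.01 in IR-A tumours, against 8.04, 7.61 and 8.47 in control tumours. Its log2 difference was 2.95 (SE 0.26, adjusted p = 0.0769 from limma), without overlap between groups. Of 9 hepatocyte markers, ALB, TTR, AFP and TF read above 12 on all 6 arrays, and all are genes of secreted liver proteins. Across all probe sets, control tumour 2 correlated less with the other controls (mean r 0.982) than with IR-A tumours (mean r 0.987), so counts are also given without single tumours. An exact permutation test of 3 against 3 tumours cannot go below p = 0.1, and as separate animals are not stated, the p-values reflect the spread between these arrays, which may be technical.

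All 9 genes that take up, move or store cholesterol had higher mean signal in IR-A tumours (differences from 0.12 to 0.99). In 4 of them (against 7.73% of all probe sets) the groups did not overlap: VLDLR, STARD4, SOAT1 and SOAT2. The 3 roles of uptake, transport and storage were joined after their values were seen. Without control tumour 1 all 9 differences stayed above 0, from 0.06 (SCARB1) to 0.92 (LRP1). NPC2 then fell from 0.56 to 0.11 and SOAT2 from 0.64 to 0.26, while VLDLR rose from 0.56 to 0.72. Of 19 enzymes of synthesis, TM7SF2, DHCR7 and LSS were higher without overlap, while 10 had differences below 0 and the median was -0.07. The mevalonate genes among them lay between -0.22 and 0.17. Of 8 regulators 6 lay above 0, with a range from -0.16 (SCAP) to 0.48 (MBTPS2). ERLIN2 and MBTPS1 (0.33 each) were higher without overlap, while SREBF2 had -0.10 and INSIG1 0.08. No member passed limma's test after Benjamini-Hochberg adjustment over all probe sets (0 of 36, as 0 of all 24726 probe sets, or 0% of them), with adjusted p values from 0.150 to 0.905. At an unadjusted p under 0.05, 8 members were higher (22.2%, against 7.1% of all probe sets) and 0 lower (against 7.03%). Every IR-A tumour lay above every control tumour in 9 members (25%, against 7.73% of all probe sets), and below in 0 (against 9.45%). All 36 members stayed when the dimmest 50% of probe sets were left out. Of the probe sets then left, 11% were higher and 9.68% lower at an unadjusted p under 0.05. Without overlap, 12.2% of them were higher and 12.5% lower. Members again had 8 higher at that threshold and 9 without overlap, so their excess was smaller against these brighter probe sets. The median difference of the members was 0.16, with 24 of 36 above 0, against a median of -0.03 over all probe sets, of which 44.0% lay above 0. In whole tumours, a change in the share of cells that express a gene and a change of RNA per cell cannot be told apart.

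**Figure D1:**
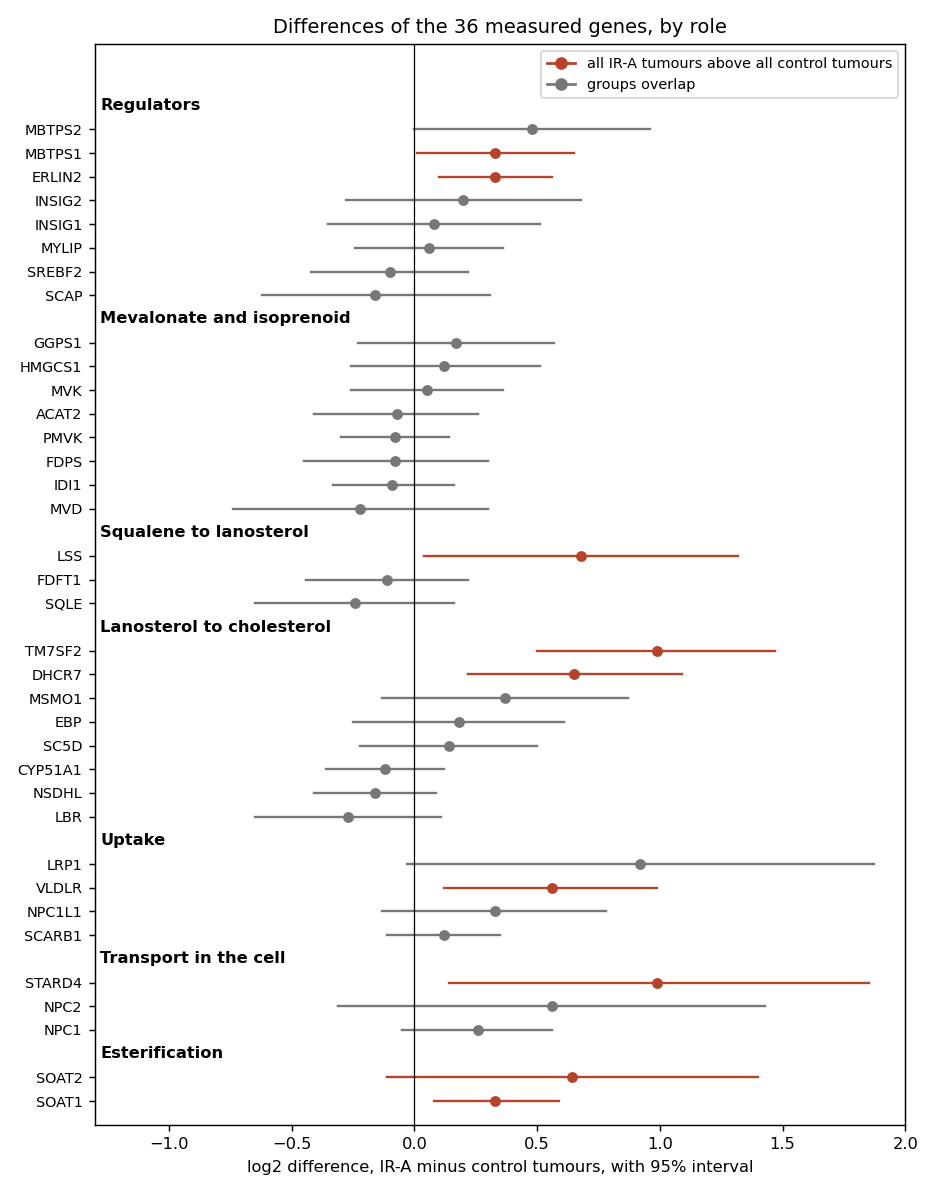
Log2 difference of each measured gene (IR-A minus control tumours, points) with its moderated 95% interval (lines), grouped by role and sorted within each role. The 9 genes in red had no overlap between 3 IR-A and 3 control tumours and all lie above 0, while the 8 mevalonate and isoprenoid genes lie between -0.22 and 0.17.

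Of 8 regulators, 2 were higher at an unadjusted p under 0.05 (against 7.1% of all probe sets) and 0 lower (against 7.03%), ERLIN2 and MBTPS1, both of which act on SREBP proteins. ERLIN2, an endoplasmic reticulum protein that binds cholesterol and holds the SREBP complex back, read 8.11, 8.19 and 8.13 in IR-A tumours, against 7.82, 7.70 and 7.93 in control tumours (log2 difference 0.33, SE 0.10, adjusted p = 0.228 from limma). The IR-A tumours lay within a range of 0.07 and all above the controls. MBTPS1, the site-1 protease, read 7.45, 7.45 and 7.57 in IR-A tumours and 6.99, 7.42 and 7.06 in control tumours (difference 0.33, SE 0.13). Here control tumour 2 lay only 0.02 below the lowest IR-A tumour. Without control tumour 2 the difference was 0.46 (unadjusted p = 0.00374 in limma), while without any other single tumour it was 0.25 to 0.35 and no longer passed an unadjusted p of 0.05. It also missed that threshold with median centring, both filters on dim probe sets, an intensity trend and the replicate block (unadjusted p from 0.0555 to 0.08 in limma). MBTPS2, the site-2 protease, which is named for its role after its values were seen, read 9.61, 9.12 and 9.70 in IR-A tumours and 8.68, 9.19 and 9.12 in control tumours, so its groups overlapped (difference 0.48, SE 0.20).

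SREBF2, which encodes SREBP-2, read 7.15, 7.57 and 7.22 in IR-A tumours and 7.32, 7.44 and 7.47 in control tumours, with a 95% interval of the difference from -0.42 to 0.22. SCAP had a difference of -0.16 (interval from -0.62 to 0.31). INSIG1, itself a target of SREBP-2 and in many cells a readout of its activity, had 0.08 (interval from -0.35 to 0.51), and INSIG2 0.20 (interval from -0.28 to 0.68). MYLIP, a ubiquitin ligase that sends lipoprotein receptors to degradation, had 0.06 (interval from -0.24 to 0.36). These 5 genes, named for their roles after their values were seen, overlapped between groups, and their intervals do not exclude differences of up to about the bounds given. Transcript level does not report the cleavage of SREBP-2 protein.

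The 8 mevalonate and isoprenoid members had differences from -0.22 to 0.17 (median -0.07), and 0 of them passed an unadjusted p of 0.05 in either direction. HMGCS1, which condenses acetyl-CoA units to HMG-CoA and whose promoter is printed above, read 9.90, 10.38 and 10.16 in IR-A tumours and 9.87, 10.26 and 9.94 in control tumours. Its groups covered nearly the same range. The smallest p values of this list belonged to GGPS1, which makes geranylgeranyl diphosphate for protein prenylation, and to MVD, which decarboxylates mevalonate diphosphate. GGPS1 read 7.27, 6.96 and 7.14 in IR-A tumours and 6.72, 7.28 and 6.87 in control tumours (difference 0.17, SE 0.17). MVD read 6.63, 7.04 and 7.19 in IR-A tumours and 7.07, 6.89 and 7.56 in control tumours (difference -0.22, SE 0.22). In both genes the tumours of a group spread more widely than the groups differed, and over left-out tumours the difference ran from 0.05 (without control tumour 1) to 0.33 (without control tumour 2) for GGPS1 and from -0.36 (without control tumour 2) to -0.03 (without control tumour 3) for MVD. ACAT2 (-0.07), MVK (0.05), PMVK (-0.08), IDI1 (-0.09) and FDPS (-0.08), which carry acetyl-CoA and mevalonate on to farnesyl diphosphate, lay closer still to 0. FDPS has pseudogene copies, so the source of its signal is uncertain.

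The 3 genes from squalene to lanosterol differed in direction. LSS, the cyclase that closes the sterol rings to form lanosterol, read 7.23, 7.42 and 7.44 in IR-A tumours, against 6.04, 7.0 and 7.01 in control tumours (difference 0.68, SE 0.27, adjusted p = 0.334 from limma). Control tumour 1 was far below the other controls, and without it the difference was 0.36 (SE 0.11), still without overlap. SQLE, the oxygenase that makes squalene epoxide and a rate-limiting step of the later pathway, read 8.60, 9.03 and 9.08 in IR-A tumours and 8.95, 9.14 and 9.35 in control tumours (difference -0.24, SE 0.17), with overlap. Over left-out tumours its difference ran from -0.34 (without control tumour 1) to -0.09 (without IR-A tumour 1). FDFT1, squalene synthase, had a difference of -0.11 (interval from -0.44 to 0.22), and -0.23 without control tumour 1. With that tumour left out, SQLE and FDFT1 lay lower without overlap, against 12.1% of all probe sets.

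Between lanosterol and cholesterol, 8 members were measured, and 2 lay higher (against 7.73% of all probe sets) and 0 lower (against 9.45%) without overlap. TM7SF2, a sterol reductase that removes the C14 double bond, read 8.41, 8.24 and 8.31 in IR-A tumours, against 6.87, 7.65 and 7.46 in control tumours. The gap between the groups was 0.58, the widest of all members. Its difference of 0.99 (SE 0.20, interval from 0.50 to 1.47, a 1.99-fold higher signal) had the smallest adjusted p of the members (0.150 from limma). Leaving out single tumours gave 0.76 to 1.15. LBR, the lamin B receptor, carries the same reductase activity in the inner nuclear membrane. It read 8.46, 8.48 and 8.97 in IR-A tumours and 8.97, 8.81 and 8.93 in control tumours (difference -0.27, SE 0.16). In LBR, IR-A tumours 1 and 2 lay below all controls, but IR-A tumour 3 was level with the highest of them. Without IR-A tumour 3 its difference was -0.44 at an unadjusted p of 0.00789 in limma (adjusted p = 0.254).

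DHCR7, which reduces 7-dehydrocholesterol in the last step of the Kandutsch-Russell branch, read 10.80, 10.87 and 10.63 in IR-A tumours, against 10.02, 9.82 and 10.50 in control tumours (difference 0.65, SE 0.18, adjusted p = 0.213 from limma). All IR-A tumours lay above the highest control, tumour 3, by at least 0.14. The other 5 genes of this stretch overlapped between groups. MSMO1 (0.37), which starts the removal of the C4 methyl groups, EBP (0.18), which shifts a ring double bond, and SC5D (0.14), a desaturase, had differences above 0. Without control tumour 1 these were 0.15 for MSMO1, -0.02 for EBP and 0.05 for SC5D. CYP51A1 (-0.12), the C14 demethylase that acts just before TM7SF2, and NSDHL (-0.16), which follows MSMO1, had differences below 0.

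**Figure D2:**
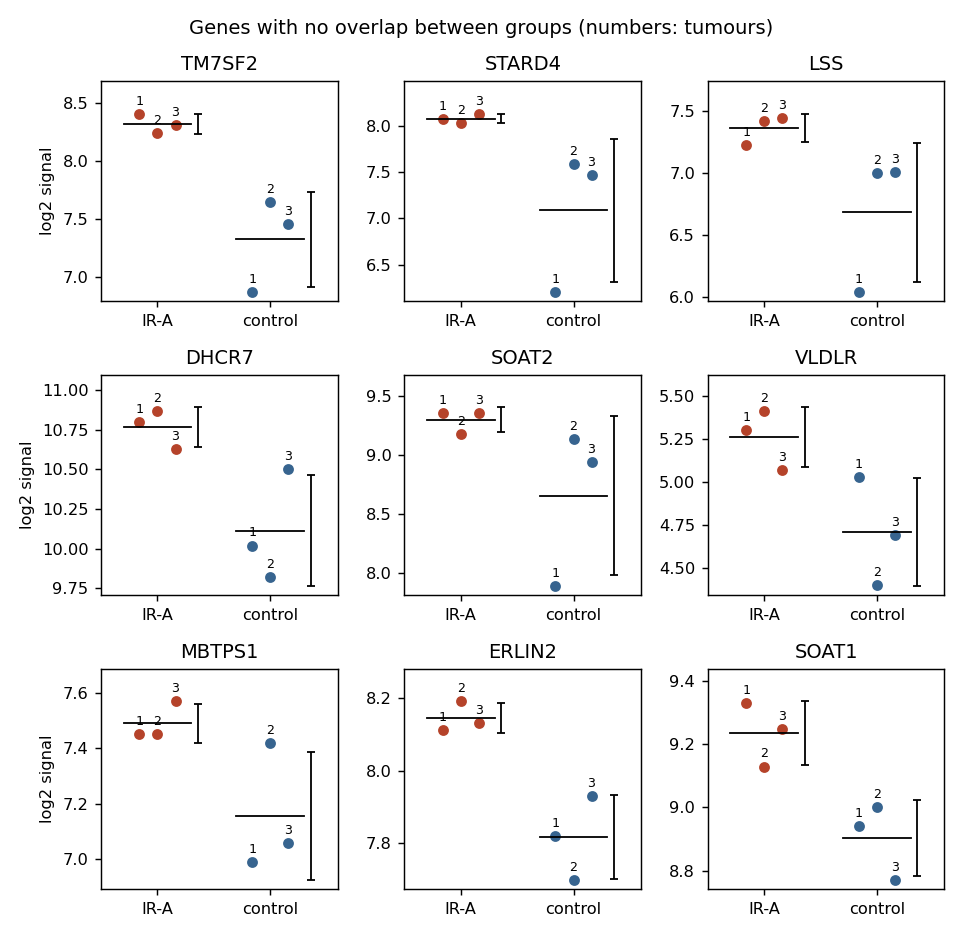
Log2 signal of the 9 genes in which every IR-A tumour lay above every control tumour. Points are tumours with their numbers, horizontal lines are group means and vertical bars are SD (n = 3 each); each gene has its own axis. Control tumour 1 is the lowest point in TM7SF2, STARD4, LSS, SOAT2 and MBTPS1.

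The 4 receptors of uptake all had differences above 0. VLDLR, which binds triglyceride-rich lipoproteins, read 5.30, 5.41 and 5.07 in IR-A tumours, against 5.03, 4.40 and 4.69 in control tumours (difference 0.56, SE 0.18, adjusted p = 0.257 from limma). Its groups were separated by only 0.04. LRP1, a large endocytic receptor for remnant particles and many other ligands, read 8.94, 10.13 and 8.74 in IR-A tumours and 8.34, 7.92 and 8.78 in control tumours (difference 0.92, SE 0.40). IR-A tumour 2 stood far above the others, and without it the difference was 0.49 (SE 0.26). SCARB1, the HDL receptor (0.12, interval from -0.11 to 0.35), and NPC1L1, which takes up free cholesterol from bile and gut (0.33, interval from -0.13 to 0.78), overlapped between groups. Without control tumour 1 the difference was 0.11 for NPC1L1 and 0.06 for SCARB1.

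The 3 genes of transport inside the cell also lay above 0. STARD4, a soluble carrier that moves cholesterol between membranes, read 8.07, 8.03 and 8.13 in IR-A tumours, against 6.2, 7.59 and 7.47 in control tumours (difference 0.99, SE 0.36, adjusted p = 0.295 from limma). The IR-A tumours agreed within 0.10, while the controls spanned 1.39, and without control tumour 1 the difference was 0.55 (SE 0.10), still without overlap. NPC1, the membrane protein that exports cholesterol from lysosomes, read 9.01, 8.87 and 8.89 in IR-A tumours and 8.67, 8.45 and 8.88 in control tumours (difference 0.26, SE 0.13). Control tumour 3 reached into the IR-A range by 0.01, and without control tumour 2 the difference was 0.15. Its soluble partner NPC2 read 9.24, 9.14 and 9.19 in IR-A tumours and 7.73, 8.99 and 9.16 in control tumours (difference 0.56, SE 0.36), of which 0.11 was left without control tumour 1.

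Both acyltransferases that store cholesterol as esters lay higher without overlap (2 of 2, against 7.73% of all probe sets). SOAT1, the widely expressed form, read 9.33, 9.13 and 9.25 in IR-A tumours, against 8.94, 9.0 and 8.77 in control tumours (difference 0.33, SE 0.11, adjusted p = 0.255 from limma). SOAT2, the form of hepatocytes and enterocytes, read 9.36, 9.18 and 9.36 in IR-A tumours, against 7.89, 9.14 and 8.94 in control tumours (difference 0.64, SE 0.32). In SOAT2 control tumour 2 came within 0.04 of the lowest IR-A tumour, and without control tumour 1 the difference was 0.26, while SOAT1 kept 0.35.

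The control tumours differed among themselves more than the IR-A tumours did. The range over 3 control tumours exceeded that over 3 IR-A tumours in 28 of 36 members (77.8%, against 60.9% of all probe sets). Control tumour 1 was the lowest of the 6 tumours in 18 of 36 members, against 16.9% of all probe sets, and the members' median deviation from their own mean was -0.20 there, against 0.01 and 0.03 in control tumours 2 and 3. In IR-A tumours 1, 2 and 3 it was 0.04, 0.10 and 0.10. Without control tumour 1 the median difference of the members was 0.05, against 0.16 with it, yet 7 members were still higher at an unadjusted p under 0.05 (19.4%, against 4.4% of all probe sets) and 9 without overlap (25%, against 10.7%). In place of 0, 2 members (SQLE and FDFT1) then lay lower without overlap, against 12.1% of all probe sets.

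**Figure D3:**
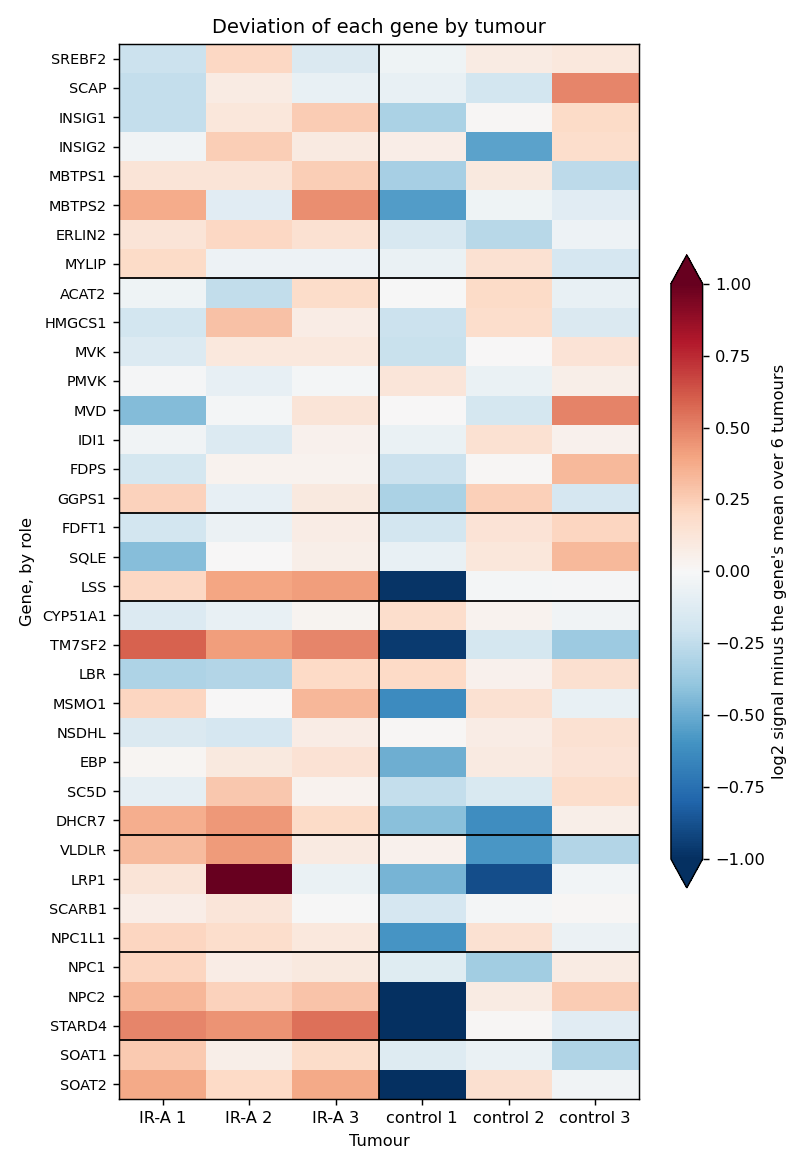
Log2 signal minus the gene's own mean over 6 tumours, for 36 genes (rows, divided by role) in IR-A tumours (left) and control tumours (right). Colours end at -1 and 1. Control tumour 1 holds the lowest values, -1.39 in STARD4, -1.18 in NPC2, -1.09 in SOAT2, -0.98 in LSS and -0.95 in TM7SF2, and IR-A tumour 2 the highest, 1.32 in LRP1.

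The number of members with higher signal depended on which tumour was left out. At an unadjusted p under 0.05 it was 3, 5 and 5 without IR-A tumour 1, 2 and 3, and 7, 13 and 7 without control tumour 1, 2 and 3. TM7SF2, DHCR7 and ERLIN2 were among them in all 6 cases. The share of members stayed above that of all probe sets each time, from 8.33% against 4.08% (without IR-A tumour 1) to 36.1% against 10.3% (without control tumour 2). No member passed after adjustment in these cases either, and the lowest adjusted p was 0.0577 in limma, for TM7SF2 without control tumour 2. Of all probe sets, 308 passed without control tumour 2 and 0 without any other single tumour.

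**Figure D4:**
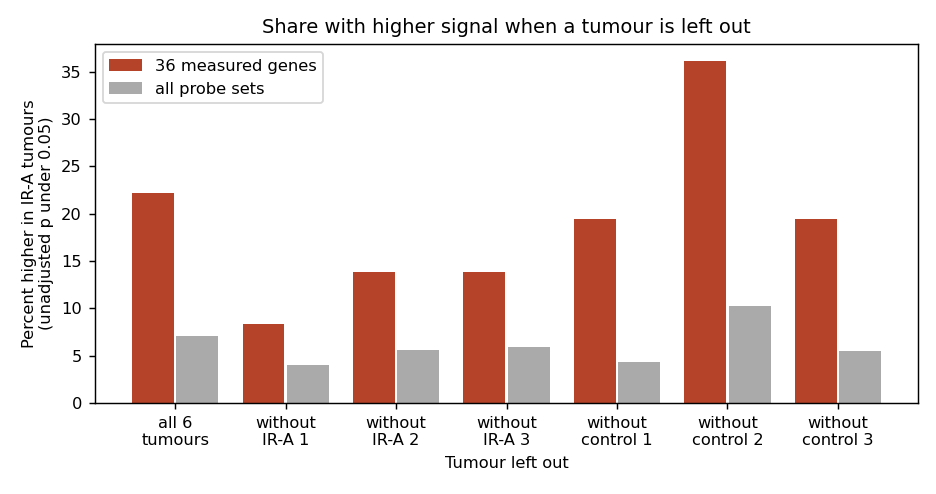
Percent of the 36 measured genes (red) and of all probe sets (grey) with higher signal in IR-A tumours at an unadjusted limma p under 0.05, with all 6 tumours and with each tumour left out. The red bars run from 8.33% without IR-A tumour 1 to 36.1% without control tumour 2 and lie above the grey bars throughout.

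Other genes of the pathway, in 6 lists with 82 measured genes, had 14 higher and 5 lower at an unadjusted p under 0.05 (against 7.1% and 7.03% of all probe sets) and a median of 0.04. In the list of sterol sensing, 2 of 12 were higher and 1 lower. SPRING1, which assists the site-1 protease and SCAP, read 8.43, 7.68 and 7.85 in IR-A tumours and 7.26, 7.17 and 6.97 in control tumours (difference 0.85). NFYA, a subunit of the CCAAT-binding NF-Y, had 0.36 and TMEM97, a binding partner of NPC1, -0.29. SREBF1, the gene of the related SREBP-1, had 0.25 with overlap. Among uptake and lysosome genes, 3 of 10 were higher and 1 lower. LRP8, a receptor close to VLDLR in structure, read 5.10, 4.82 and 5.01 in IR-A tumours and 5.80, 5.54 and 5.91 in control tumours (difference -0.77, the opposite direction to VLDLR). LIPA, the acid lipase that frees cholesterol from esters in lysosomes, had 0.46 and the lysosomal membrane protein LAMP2 0.39. CD36, a scavenger receptor that macrophages and adipocytes also express, is named after its values were seen, as it had the largest difference of the 82 genes. It read 6.89, 5.83 and 5.66 in IR-A tumours and 4.51, 5.62 and 4.07 in control tumours (difference 1.39, SE 0.47), without overlap.

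Of genes for efflux, ester hydrolysis and oxysterols, 4 of 13 were higher and 0 lower at an unadjusted p under 0.05, against 7.1% and 7.03% of all probe sets. They included the efflux pump ABCA1 (0.67), ABCG8, a half-transporter of biliary secretion (0.54), and NCEH1, a hydrolase of cholesteryl esters and thus the reverse of SOAT1 (0.68). Of 19 carriers between membranes, 3 were higher and 0 lower: the oxysterol-binding proteins OSBPL9 (0.36), OSBPL11 (0.51) and OSBP (0.24). Of 13 genes of the branches that use isoprenoids, 0 were higher and 3 lower. PDSS1, which builds the side chain of coenzyme Q, had -0.70, and the subunits of Rab geranylgeranyl transferase, RABGGTA and RABGGTB, had -0.43 and -0.36. Of 15 genes of fatty acid synthesis, which depend more on SREBP-1, 2 were higher and 0 lower, GPAM (1.02) and ACACB (0.72), while FASN (0.04) and SCD (0.08) lay close to 0. ACSS2, an acetyl-CoA synthetase, had 0.66 (unadjusted p above 0.05). None of the 82 genes passed after adjustment (lowest adjusted p = 0.140 in limma, for LRP8).

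Several members, among them LRP1, SOAT1 and NPC2, are also expressed by host cells such as macrophages and fibroblasts, and some markers of these cells lay higher in IR-A tumours. Of 6 macrophage markers 2 were higher at an unadjusted p under 0.05 (TYROBP by 1.78 and CD68 by 0.62) and 0 lower, against 7.1% and 7.03% of all probe sets for this and the following lists, and the list's mean signal was 5.61 to 5.78 in IR-A tumours and 5.10 to 5.42 in control tumours. That mean was moved by TYROBP and CD68, as CSF1R, CD163, ITGAM and AIF1 had differences from -0.03 to 0.09. CSF1R, CD163 and ITGAM stayed below 4.71, the median of all probe sets, in every tumour. Of 8 fibroblast markers 3 were higher (LUM by 1.26, COL1A2 by 0.83 and COL1A1 by 0.40) and 0 lower. Their list means were 4.38 to 4.49 in IR-A tumours and 3.99 to 4.18 in control tumours. LUM itself, with DCN, FAP and POSTN, stayed below that median of all probe sets in every tumour. Endothelial markers had 1 of 6 higher (PECAM1) and list means of 4.08 to 4.14 in IR-A tumours and 4.01 to 4.09 in control tumours. Adipocyte markers had 1 of 6 higher (PLIN1) and list means of 4.67 to 4.76 in IR-A tumours and 4.31 to 4.54 in control tumours. ADIPOQ, LEP and FABP4 lay below the median of all probe sets. The median difference of the adipocyte list was 0.02, while PLIN1 had 1.64. Of the hepatocyte markers 3 of 9 were higher and 0 lower, with list means of 11.23 to 11.28 in IR-A tumours and 11.02 to 11.24 in control tumours. The probe sets are of human genes, and the part of host cells or of hepatocyte content in the members' differences was not tested.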

How the data were processed

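Total RNA of 6 tumours was extracted with Trizol, and 500 ng per tumour was labelled by a whole-transcript method for Affymetrix arrays, per the labels' protocols. The authors deposited log2 signals, 1 value per gene-level probe set and array. Per the submitters' processing notes, the tools include RMA and Partek, with no version or role stated. Neither probe set definition nor build is given in the sources used here, and the log2 scale was read from the values (1.91 to 13.22, array medians 4.66 to 4.74). RMA compresses differences of dim probe sets.

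Of 24726 probe sets, 23934 have 1 symbol in GEO's platform annotation, none has several and 792 have none. That annotation named 35 members, and FDFT1 was named through its gene ID in the RefSeq table. No 2 arrays shared more than 4.15% of their values. IR-A was compared with control by limma 3.58.1 (R 4.3.3, lmFit and eBayes, two-sided, no filter), with p-values adjusted (Benjamini-Hochberg) over every probe set, a threshold of 0.05 and moderated SE and 95% intervals. The script was tested on simulated data. Overlap and motif counts are descriptions.

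By rule, values per tumour are given for members with an unadjusted p under 0.05 or no overlap and for the 2 of smallest p per role, 14 in all. Up to 3 genes of smallest p per other list were named. Other names, some with values per tumour, were added for their roles after the values were seen. Members, lists and rules were chosen with earlier results of these data known. Alternatives were quantile normalization, median centring, leaving out the dimmest 25% or 50%, an intensity trend, robust moderation, array weights, a replicate block and each tumour left out. Figures used matplotlib 3.10.9 in Python 3.11.15.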

Additional observations from a re-analysis of the deposited data

How the results depend on the processing

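The number of arrays and the unmeasured background of dim probe sets limit these results. With all 6 tumours, quantile normalization, median centring, filters on dim probe sets, an intensity trend, robust moderation and array weights gave 8 to 11 members higher and 0 lower at an unadjusted p under 0.05, against 8 and 0 as reported, and 0 members after adjustment. Over left-out tumours the members higher ran from 3 (without IR-A tumour 1) to 13 (without control tumour 2). The members lower ran from 0 to 1 (LBR, without IR-A tumour 3). Of all probe sets, 4.08% to 10.3% were then higher and 4.61% to 10.7% lower. Members higher without overlap ran from 9 to 14 and lower without overlap from 0 to 3, where fewer tumours make separation easier. Of all probe sets, 10.7% to 16.3% were higher and 12.1% to 22.5% lower without overlap over left-out tumours. The median difference ran from 0.05 (without control tumour 1) to 0.23 (without control tumour 3), and no member was called after adjustment. Of the probe sets tested, 308 were called without control tumour 2 and 11 with array weights. With the dimmest 25% and 50% left out, 14 and 20 were called. The 14 members named by the rule on p and overlap kept their direction and stayed uncalled in all 14 settings. Some members outside these 14 changed direction, for example EBP (-0.02 without control tumour 1, against 0.18). The INSR difference passed adjustment under array weights (2.87), under both filters on dim probe sets (2.95 at 25% and 2.95 at 50%) and when control tumour 2 was left out, and ran from 2.74 to 3.17 over left-out tumours. Deviations of equal replicate numbers correlated at -0.294, -0.358 and 0.0203, and those of unequal numbers at -0.321 to 0.504. Within a group of 3 the deviations sum to 0, so these values cannot show whether replicate numbers paired the tumours. The replicate block gave 6 members higher and 0 lower at an unadjusted p under 0.05 in limma (against 5.65% and 5.26% of all probe sets). Its INSR difference was 2.95.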
